A study of Arabidopsis thaliana with 12 samples.

Results

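The genes described here are 60 Arabidopsis thaliana loci that the array annotation knew only by an AT locus code, whose probes were above 0 on every array and bright on average, and whose mean ratio of staurosporine to water lay near 0. They were chosen from measured values. A probe was kept if it had a single annotated gene with a locus code as its symbol, was above 0 on all 12 arrays, and had a mean of the 6 same-number log2 ratios within 0.3 log2 units (1.23-fold) of 0. The 60 with the highest mean normalized intensity over the 12 arrays were taken, and AT1G74470, AT3G52960 and AT2G04700 were left out by name. None of those 3 would have entered the list. Of 3439 probes, 692 had a single gene, 599 of these were locus-named, 457 of the locus-named were above 0 on every array, and 175 of these were in the ratio range and not left out. Because the ratio and the level chose the genes, both are given as descriptions and support nothing.

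The staurosporine group held 6 arrays of wild-type Columbia 0 plants given 2 µM staurosporine during 4 h, followed by 4 h in 25 mM ascorbate (pH 5.5). The water group held 6 arrays of the same ecotype, with water during the first 4 h and the same ascorbate step. Since ascorbate was given to both groups, its own effect cannot be read here. Staurosporine blocks many protein kinases by competing with ATP. Total RNA of whole samples was measured, so fewer cells of a type and less RNA per cell cannot be told apart. The labels name neither the tissue nor whether separate plants stood behind the replicates of a group.

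These loci do not form 1 pathway. Several belong to families that act on the nucleic acids of chloroplasts and mitochondria or in organelle translation. Pentatricopeptide repeat (PPR) proteins and mTERF proteins are nucleus-encoded families that bind organelle nucleic acids. PPR proteins take part in the processing, splicing, editing and translation of organelle transcripts. Other members encode enzymes of plastid metabolism, folding factors, organelle membrane proteins and secreted or cell wall proteins. The roles given below are background on these loci and do not come from the array files. Members for which no role is certain are named by locus only.

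Deposited intensities were relative, with a ceiling at 100 and array medians between 0.252 and 0.486, and 10.3% to 15.2% of the probes of an array were at 0. After quantile normalization, all 3439 probes together had a median log2 change of -0.12. Arrays of a group were more alike within the number pairs 1 and 2, 3 and 4, and 5 and 6: the members differed by a median of 0.160 log2 units within and 0.325 between pairs in the staurosporine group, and by 0.0902 and 0.361 in the water group. Means are therefore given as mean ± SD over the 3 pair means of a group (n = 3). Of 10 leaf marker genes 1 had a single-gene probe, the antenna gene AT2G34420. Its normalized intensity was 1.16 at the lowest, 1.32 at the median and 1.44 at the highest of the staurosporine arrays, against 1.52, 2.05 and 2.72 of the water arrays. No gene of the root, guard cell, seed storage, trichome, companion cell or myrosin cell lists had a single-gene probe. Those cell types were not checked here, and 1 antenna gene cannot show the share of leaf cells.

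In limma over the 12 arrays, none of the 60 members passed an adjusted p of 0.05, where 22.9% of all probes did. The share was 27.5% of the 2584 probes above 0 on every array and 35.2% of the 813 of them as bright as the members. The rule had used this contrast, so nothing is read from these differences. The members' adjusted p ran from 0.0882 to 0.991, and 1 member, AT2G28540, had an unadjusted p under 0.05. With number pairs averaged, none passed, where 0.262% of all probes did. In no member did the 2 groups of 6 arrays separate, while 17.7% of the 2584 probes above 0 on every array had groups that did not overlap. The members' median log2 change was 0.04, with 33 means above 0 and 27 below, and the median over the 2584 probes was -0.02.

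A mean near 0 did not make the single ratios near 0. Only 6 of the 60 members had all 6 ratios within 0.3 log2 units of 0, 54 had at least 1 outside, and 13 had fewer than 3 inside. Among those 6 was AT4G31530, at the ceiling of the deposited scale on 3 staurosporine and 4 water arrays. Its deposited log2 ratios ran from -0.76 to 0.37, so it cannot be counted as steady. The SD of the 6 ratios had a median of 0.328 log2 units over the members and ran from 0.0368 to 0.894. The median SD was 0.478 over all 2584 probes above 0, and 0.364 over the 813 of them at least as bright as the dimmest member. In 6 members, AT1G13370, AT4G24750, AT1G73470, AT2G15440, AT2G25640 and AT3G24190, the mean came from number pairs more than 0.5 log2 units apart from 0 in opposite directions. The members' means were thus near 0 over a range of spreads, from steady ratios to opposite ones.

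How large a change the arrays leave room for is shown by the 95% intervals of the log2 change. With the 12 arrays as separate samples, 58 members had an interval inside 1 log2 unit (2-fold) on both sides of 0 and 18 inside 0.5. With the number pairs averaged, 42 members had an interval inside 1 log2 unit, 18 reached past it, and 0 lay inside 0.5. The median interval extended 0.417 log2 units to each side of the mean with 12 arrays and 0.718 with averaged pairs. These intervals were computed after choosing means near 0. They do not describe a member's own spread alone, since limma draws each probe's variance toward a value fitted over all 3439 probes. How many intervals lay inside 0.5 therefore depends partly on that shared value.

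**Figure D1:**
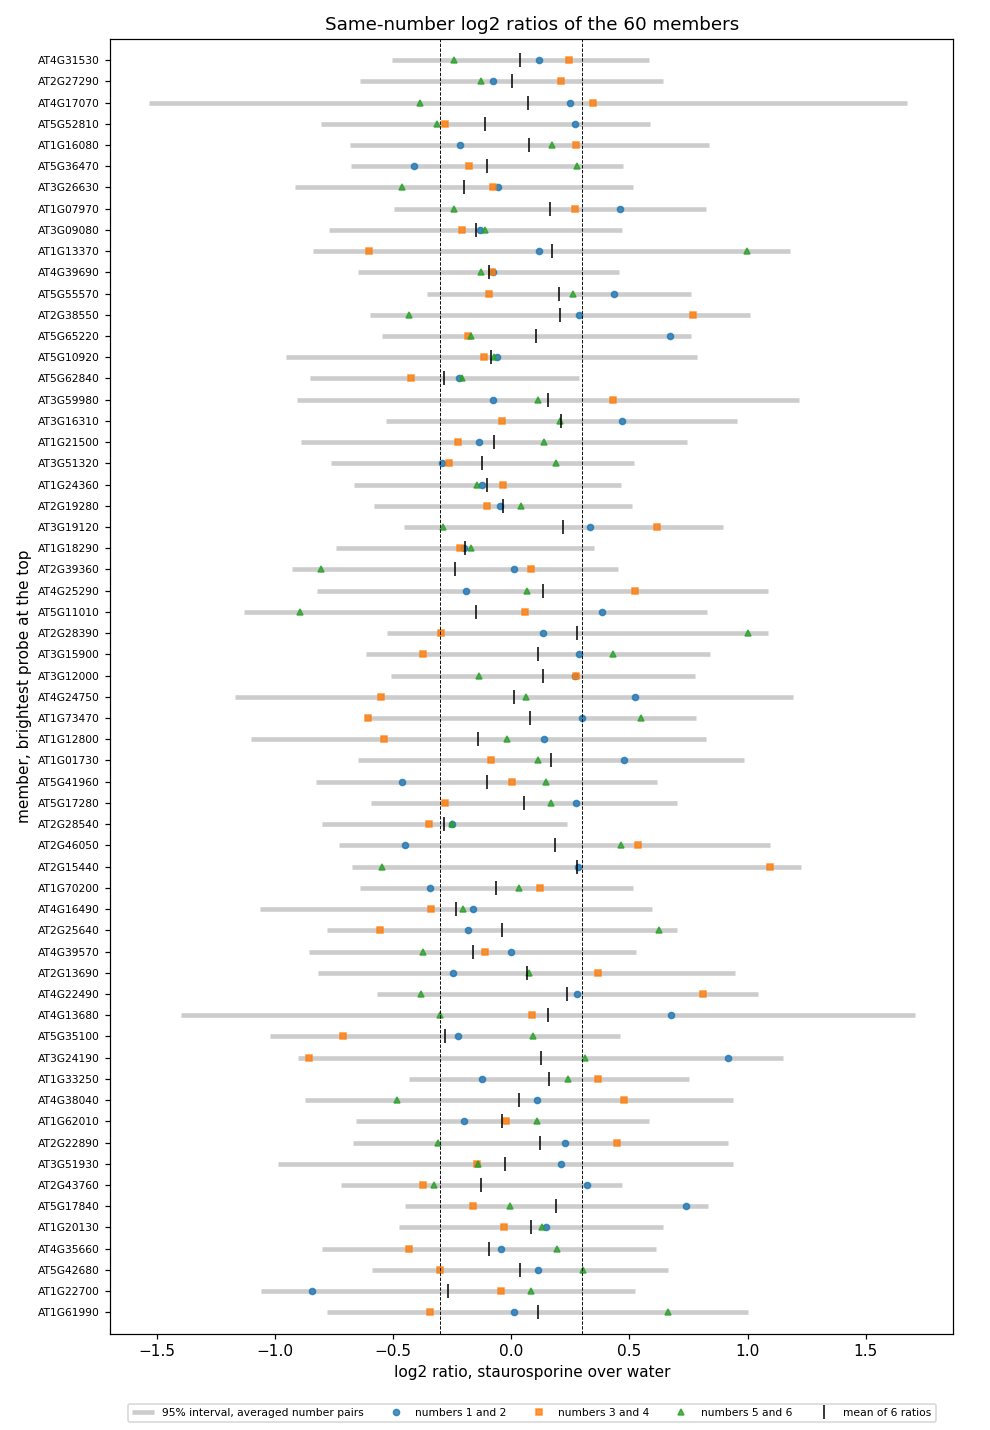
Log2 ratio of staurosporine to water (x axis, log2 units) for each of the 60 members (y axis, brightest probe at the top); colored points are the means of each number pair, black ticks the mean of the 6 ratios, grey bars the 95% limma interval with averaged pairs, and dashed lines the range of the rule at 0.3 log2 units from 0. The black ticks lie inside the dashed lines by the rule, whereas the points of only 16 members all do, and 18 grey bars reach past 1 log2 unit. The 16 include AT4G31530, whose probe was at the ceiling of the deposited scale on arrays of both groups.

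The brightest probe belonged to AT4G31530, which encodes a protein with an NAD(P)-binding Rossmann fold. It stood at the ceiling of the deposited scale on 3 staurosporine arrays and 4 water arrays, so its level there has only a lower bound. The deposited intensity was 100, 100, 96.1, 100, 59.3 and 60.3 in staurosporine replicates 1 to 6, against 100, 100, 75.3, 77.5, 100 and 100 in water replicates 1 to 6. At numbers 5 and 6 the staurosporine arrays were lower, with deposited log2 ratios of -0.76 and -0.73 that could be lower still, since the water arrays were at the ceiling. At numbers 3 and 4 they were higher, at 0.35 and 0.37. The ratio at number 4 could be higher still, since its staurosporine array was at the ceiling. After quantile normalization, which gives the highest probes of each array a shared set of values, the level was 88.7 ± 8.37 with staurosporine and 86.3 ± 7.25 with water, and the mean log2 ratio was 0.04. With arrays of both groups at the ceiling, this mean does not measure whether the transcript held its level.

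AT2G27290, for which no role is given here, had the next brightest probe. Its deposited intensity was 39.2, 39.8, 54.5, 61.8, 30.1 and 31.2 in staurosporine replicates 1 to 6, against 60.2, 62.1, 52.5, 57.6, 44.3 and 45.8 in water replicates 1 to 6. In 4 of the 6 same-number comparisons the staurosporine array was lower before normalization, and the mean log2 ratio was -0.37. After quantile normalization the level was 47.4 ± 8.82 with staurosporine and 47.0 ± 7.05 with water, and the mean log2 ratio was 0.00. With cyclic loess it was -0.20 and with arrays centred on their medians -0.56. It was thus in the range of the rule under quantile normalization and loess and outside it under the other 2 scalings.

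The same held more weakly for other bright members. In all 12 of the brightest, the deposited mean log2 ratio was lower than the normalized one, by a median of 0.170 log2 units; the column of differences, deposited minus normalized, had a median of -0.17 there and of 0.00 over the other 48 members. Before normalization 54 of the 60 were within 0.3 log2 units of 0. The PPR gene AT3G26630 had a deposited mean log2 ratio of -0.42, and AT5G62840 had -0.37. AT3G09080 and AT5G36470 had -0.32 and -0.31. Together with AT2G27290 these are the 5 below the range, and AT2G15440 at 0.32 is the 1 above it. With arrays centred on their medians, 40 members were in the range and 20 were below it. Whether these bright genes differed from the bulk of the array therefore rests on how the arrays are scaled. Without normalization the 3439 probes had a median log2 change of 0.19, against -0.12 with the quantile step. Counted from each median, 40 members were in the range without normalization and 51 with it.

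**Figure D2:**
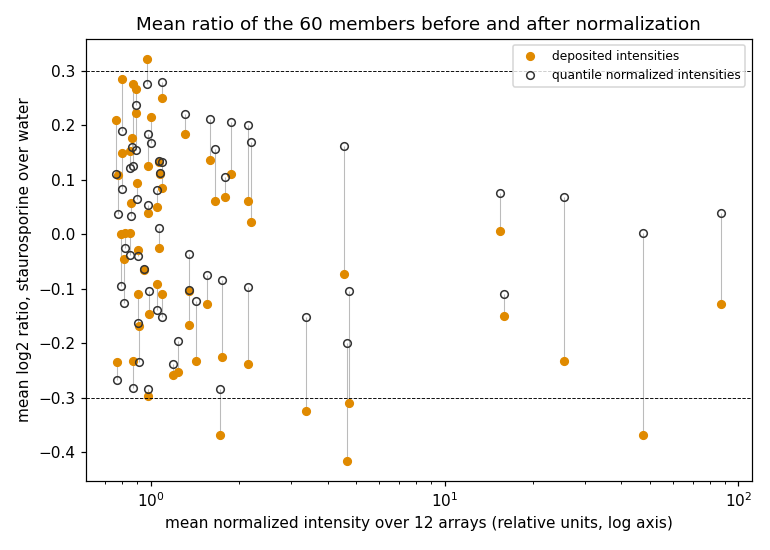
Mean log2 ratio of staurosporine to water (y axis, log2 units) against mean normalized intensity over 12 arrays (x axis, relative units, log axis) for the 60 members; filled points are from deposited intensities, open points from quantile normalized ones, and a line joins both values of a gene. Open points lie inside the dashed lines at 0.3 log2 units from 0 by the rule, and in all 12 of the brightest members the filled point lies lower.

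**Figure D3:**
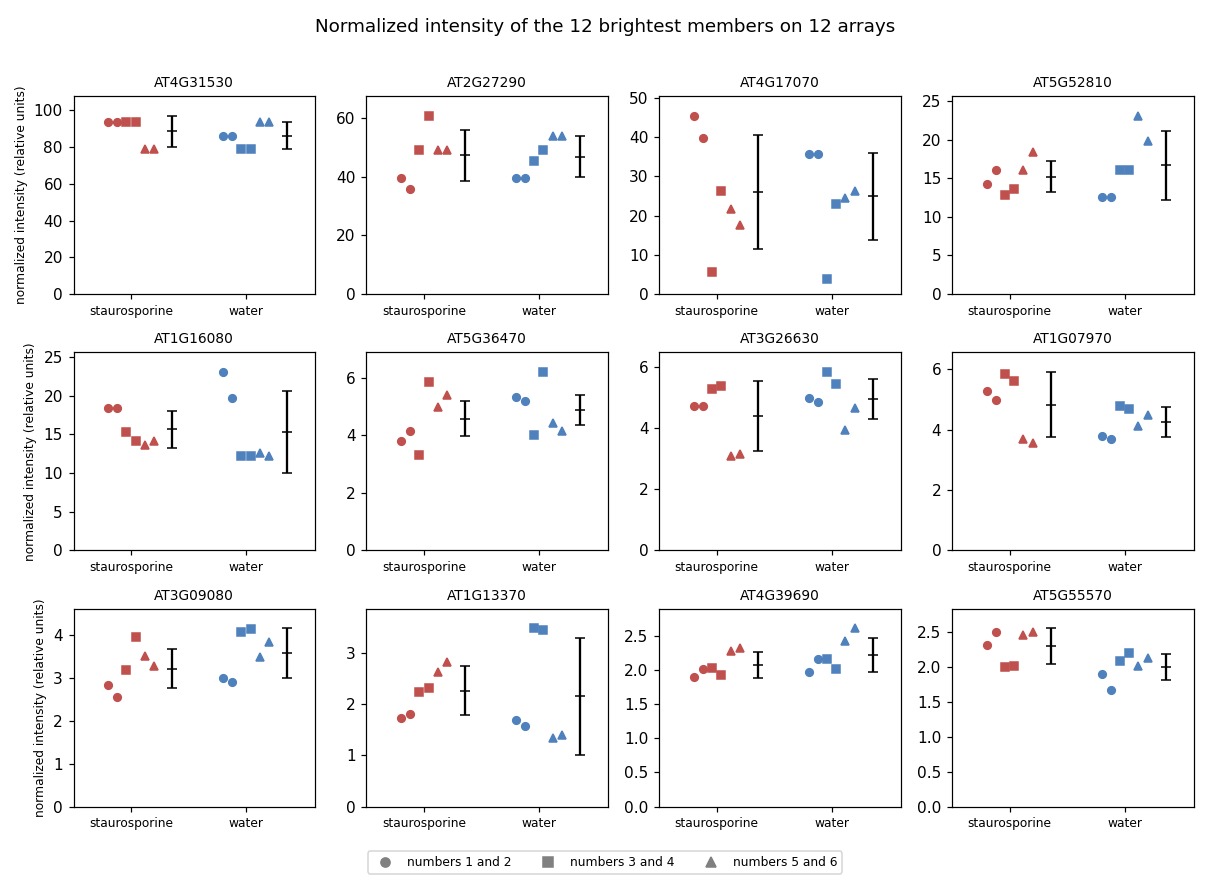
Normalized intensity (y axis, relative units, from 0) of the 12 brightest members on the 6 staurosporine arrays (left) and 6 water arrays (right); point shapes mark the number pairs, and the black bar is the mean ± SD over 3 pair means. The groups overlap in each panel, and in AT4G17070 the array of number 3 is the lowest of both groups.

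Members of families that bind organelle nucleic acids or act in organelle translation numbered 9. Their mean log2 ratios ran from -0.20 to 0.18, 3 above 0 and 6 below. The 4 PPR genes all had a pair ratio below 0 at numbers 1 and 2, while at the other number pairs their signs were mixed. AT3G26630 had a normalized intensity of 3.08 at the lowest, 4.73 at the median and 5.38 at the highest of the staurosporine arrays, against 3.95, 4.93 and 5.83 of the water arrays. Its 6 ratios were all below 0, and the pair at numbers 5 and 6 had the lowest, -0.46. AT2G19280 was steadier, with 1.20, 1.34 and 1.43 on the staurosporine arrays against 1.12, 1.42 and 1.53 on the water arrays. AT3G51320 had pair ratios of -0.29, -0.26 and 0.19. AT2G46050 had -0.45, 0.54 and 0.46, so that its sign at numbers 1 and 2 opposed that at its other numbers.

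The other members of this class repeat this range of behaviours. The mTERF genes AT1G62010 and AT1G61990 lie on chromosome 1 with 1 gene between them. Members of this family can share sequence, and whether either probe also picks up the other's transcript was not tested. AT1G62010 had a median normalized intensity of 0.763 with staurosporine and 0.839 with water, and AT1G61990 had 0.771 and 0.666. AT1G70200, with an RNA recognition motif and known for ribosomal RNA processing in chloroplasts, had group means of 0.933 ± 0.154 with staurosporine and 0.966 ± 0.0280 with water. AT1G12800, a chloroplast protein with an S1 RNA-binding domain, had pair ratios of 0.14, -0.54 and -0.02.

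AT5G65220, the L29 protein of the plastid ribosome, had 1.84 ± 0.211 with staurosporine and 1.74 ± 0.373 with water, and its 3 pair ratios were 0.67, -0.18 and -0.17. Of 34 listed genes of the plastid ribosome, 6 had a single-gene probe. In limma over 12 arrays, 1 of the 6 (AT3G13120) was lower, 0 were higher and 5 missed the threshold, where 22.9% of all probes passed it. One of those 5, AT1G64510, was at 0 on 11 arrays and has no usable change. The median log2 change was -0.16 over the 6, 0.10 over the 5 without AT1G64510 and -0.16 over the 4 above 0 on every array. Over all probes it was -0.12, and over the 2584 probes above 0 on every array it was -0.02. The latter is the like comparison for the set of 4. Each of the 3 sets held AT5G65220, whose change the rule kept near 0, so these medians are partly set by the rule. The other usable genes had -0.64 (AT3G13120), -0.43 (AT3G54210), 0.10 (AT4G01310) and 1.45 (AT1G29070, at 0 on 4 arrays). The sets of 5 and 4 were chosen after seeing the data. AT5G65220 was the only member on that list.

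Metabolic enzymes numbered 7, with mean log2 ratios from -0.28 to 0.04. The brightest after AT4G31530 was AT5G52810, a reductase of pipecolate synthesis, the lysine-derived signal of systemic immunity. Its normalized intensity was 14.2, 16.1, 12.8, 13.6, 16.1 and 18.4 in staurosporine replicates 1 to 6, against 12.5, 12.5, 16.1, 16.1, 23.1 and 19.8 in water replicates 1 to 6. Staurosporine arrays were higher at numbers 1 and 2 and lower at the other 4. AT5G10920, argininosuccinate lyase of arginine synthesis, was of another kind. Its levels spanned 2.17-fold over the staurosporine arrays and 2.20-fold over the water arrays, yet its 3 pair ratios were -0.06, -0.12 and -0.07. The ups and downs between replicate numbers were nearly the same in both groups.

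AT1G24360, the 3-oxoacyl-ACP reductase of plastid fatty acid synthesis, was among the 4 members with the steadiest ratios. It had 1.21, 1.29, 1.45, 1.55, 1.11 and 1.22 in staurosporine replicates 1 to 6, against 1.33, 1.40, 1.61, 1.47, 1.26 and 1.31 in water replicates 1 to 6. The SD of its ratios was 0.0935, and only number 4 was higher with staurosporine. AT5G62840, of the phosphoglycerate mutase family, lay near the lower end of the range, with 1.56 ± 0.101 with staurosporine and 1.90 ± 0.298 with water and no ratio above 0. Its limma adjusted p was 0.173, and 0.0420 with arrays centred on their medians, where its log2 change was -0.56. AT2G43760, the large subunit type protein of molybdopterin synthase, had pair ratios of 0.32, -0.37 and -0.33. AT4G24750, of the rhodanese family, had 0.52, -0.55 and 0.06, and its level spanned 4.05-fold over the staurosporine arrays and 1.83-fold over the water arrays.

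Of the 6 members of organelle membranes and protein folding, AT4G39690 had the smallest SD of ratios of all 60, at 0.0368. It encodes the plant counterpart of mitofilin (MIC60), which shapes the inner membrane of mitochondria and takes part in lipid exchange. Its normalized intensity was 1.89, 2.02, 2.03, 1.92, 2.27 and 2.32 in staurosporine replicates 1 to 6, against 1.97, 2.16, 2.16, 2.02, 2.42 and 2.60 in water replicates 1 to 6. Every staurosporine array was slightly below its water counterpart, with ratios from -0.17 to -0.06, while the groups as a whole overlapped. AT2G38550, of the plastid fatty acid export family, had 1.97 ± 0.132 with staurosporine and 1.79 ± 0.662 with water, and its pair ratios were 0.29, 0.77 and -0.43. AT1G22700, a tetratricopeptide repeat protein needed for photosystem I assembly, had its lowest ratios at numbers 1 and 2, with pair ratios of -0.85, -0.04 and 0.08.

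Folding factors varied as much. AT5G35100, a cyclophilin type peptidyl-prolyl isomerase, had a median of 0.784 with staurosporine and 0.822 with water, and pair ratios of -0.22, -0.71 and 0.09. AT5G17840, with a DnaJ-type cysteine-rich domain, had 0.74, -0.16 and -0.01. AT4G17070, annotated as a peptidyl-prolyl isomerase, is described with the replicate numbers below.

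Staurosporine inhibits kinases as proteins, and 3 members encode kinases or receptor-like proteins, whose transcripts are what is measured here. AT2G39360, a receptor-like kinase of the CrRLK1L family with a role in cell shape, had 1.30, 1.36, 1.38, 0.967, 1.05 and 0.613 in staurosporine replicates 1 to 6, against 1.24, 1.41, 1.03, 1.16, 1.38 and 1.43 in water replicates 1 to 6. Its ratios were below 0 at numbers 2, 4, 5 and 6, and the pair at numbers 5 and 6 had a log2 ratio of -0.81. AT3G24190, an atypical kinase of the plastid ABC1 family, had the largest SD of ratios of the 60, 0.894. Its values were 1.17, 0.613, 0.679, 0.787, 1.01 and 0.804 in staurosporine replicates 1 to 6, against 0.655, 0.307, 0.812, 2.16, 0.762 and 0.693 in water replicates 1 to 6. A single array, water replicate 4, set its lowest ratio of -1.45. AT3G12000, related to the S-locus glycoproteins, had 1.13 ± 0.253 with staurosporine and 1.01 ± 0.0766 with water.

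Of 10 members with roles in trafficking, the nucleus or protein binding, AT2G28390 is described first. It encodes MON1, a SAND family protein of late endosome traffic that is often used as a plant reference gene because its transcript varies little between tissues and treatments. Among 23 listed reference genes it was the only 1 with a single-gene probe. Its normalized intensity was 0.996, 0.976, 1.04, 1.24, 1.46 and 1.36 in staurosporine replicates 1 to 6, against 0.961, 0.839, 1.46, 1.33, 0.710 and 0.696 in water replicates 1 to 6. On these arrays it was not among the steady members. Its pair ratios were 0.14, -0.30 and 1.002, the SD of its ratios was 0.607, and its mean log2 ratio of 0.28 was the highest of the 60. The rule bounded that mean, so it checks neither the scaling of the arrays nor the stability of the gene.

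AT2G28540, with an RNA recognition motif, combined the lowest mean of the 60, -0.28, with a small SD of 0.0781. It had 0.881, 0.989, 0.894, 0.857, 0.857 and 0.827 in staurosporine replicates 1 to 6, against 1.10, 1.13, 1.17, 1.06, 0.980 and 1.03 in water replicates 1 to 6. Staurosporine replicate 2 was the only staurosporine array above any water array, and it exceeded only water replicate 5. The limma adjusted p was 0.0882 over 12 arrays, 0.0387 with cyclic loess, 0.0344 with median centring and 0.00646 where an offset replaced the floor. Under those 3 settings it passed the threshold as lower, and it met the rule because the rule bounds the size of the change alone.

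AT1G13370, a histone H3 gene, had pair ratios of 0.12, -0.60 and 0.996. Its normalized intensity was 2.25 ± 0.476 with staurosporine and 2.15 ± 1.14 with water, and the water arrays of numbers 3 and 4 were highest at 3.47 and 3.44. AT3G16310, a nucleoporin of the NUP35 type, had a median of 1.71 with staurosporine and 1.48 with water. The WD40 repeat gene AT3G09080 had 3.21 ± 0.461 with staurosporine and 3.56 ± 0.579 with water. AT3G19120, derived from a PIF/Harbinger type transposase, had pair ratios of 0.33, 0.61 and -0.29. The armadillo repeat gene AT4G16490 and the kelch repeat gene AT4G39570 had mean log2 ratios of -0.24 and -0.16.

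All 5 members tied to the cell wall or secretion had a mean log2 ratio above 0, from 0.03 to 0.28. None passed the test, and the class is small and was sorted with the values in view. With arrays centred on their medians AT1G20130, AT1G33250 and AT4G38040 were below 0, at -0.04, -0.01 and -0.13. AT4G38040 was also below 0 without replicate number 3 or 4, at -0.04 and -0.08. AT1G20130, a GDSL lipase family gene, was the third steadiest of the 60, with an SD of ratios of 0.0904. It had 0.803, 0.787, 0.846, 0.926, 0.755 and 0.801 in staurosporine replicates 1 to 6, against 0.718, 0.718, 0.883, 0.923, 0.682 and 0.739 in water replicates 1 to 6. The xylan-related DUF579 gene AT2G15440 was among the least steady, with pair ratios of 0.28, 1.09 and -0.55. AT4G22490, of the lipid-transfer protein family, showed the same order of pairs at 0.28, 0.81 and -0.38, and so did the exostosin family gene AT4G38040 at 0.11, 0.48 and -0.48. AT1G33250, of a glycosyltransferase-like family, had -0.13, 0.37 and 0.24.

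For 20 members no role is given. Their mean log2 ratios ran from -0.20 to 0.20, with 13 above 0 and 7 below, and the SD of their ratios from 0.147 to 0.619. AT1G16080 had 15.7 ± 2.37 with staurosporine and 15.3 ± 5.28 with water. AT5G36470 had 4.57 ± 0.610 and 4.88 ± 0.532, and AT1G07970 had 4.83 ± 1.07 and 4.26 ± 0.503. AT5G55570, AT1G21500 and AT1G18290 had mean ratios of 0.20, -0.07 and -0.20, and AT1G18290 was below 0 at all 6 numbers. AT5G11010 had the fourth largest SD of the 60, 0.619, and was lower at numbers 5 and 6, where its pair ratio was -0.90. The others were AT4G25290, AT3G15900, AT1G73470, AT1G01730, AT5G41960, AT5G17280, AT2G25640, AT2G13690, AT4G13680, AT2G22890, AT4G35660 and AT5G42680.

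Apart from requiring signal above 0 on every array, the rule did not use how a gene varied between replicate numbers in both groups at once. This could therefore be tested beside probes that met the same requirement. In a limma F test of the number pair on averaged pairs, 0 of 60 members passed an adjusted p of 0.05, as did 0% of all 3439 probes. At an unadjusted p under 0.05 there were 3 members, or 5% of them, against 3.75% of the probes above 0 on every array. The share over all probes, 15.7%, includes probes at 0 on some arrays and is not a like comparison. The 4 members of lowest p were AT4G17070 (p 0.0104, adjusted p 0.314), AT4G13680 (0.0166, 0.314), AT3G59980 (0.0469, 0.314) and AT3G51930 (0.0664, 0.343), all by limma. With the 12 arrays kept apart and the replicate number as a factor, AT4G17070 passed with an adjusted p of 0.0359.

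The values behind these tests were partly single replicate numbers. AT4G17070 had 45.4, 39.7, 5.49, 26.4, 21.6 and 17.6 in staurosporine replicates 1 to 6, against 35.8, 35.8, 3.88, 23.1, 24.6 and 26.4 in water replicates 1 to 6. Number 3 was far below the rest in both groups, while number 4 of the same number pair was not. AT4G13680 had 1.31, 1.32, 0.781, 0.172, 0.883 and 0.983 in staurosporine replicates 1 to 6, against 0.906, 0.743, 1.16, 0.102, 1.12 and 1.17 in water replicates 1 to 6. Here number 4 was far below the rest in both groups. The same-number log2 ratio at the low number was 0.50 for AT4G17070 and 0.75 for AT4G13680, outside the range of the rule, and ratios below 0 at other numbers brought both means near 0. The 6 arrays of AT4G17070 spanned 8.28-fold with staurosporine and 9.21-fold with water, and those of AT4G13680 spanned 7.67-fold and 11.5-fold.

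For AT3G59980, with a tRNA-binding type domain, both arrays of the last number pair were low, at 1.01 and 1.07 with staurosporine and 1.05 and 0.880 with water, where its other arrays were at 1.62 or above. AT3G51930, a WD40 repeat gene, was low at numbers 3 and 4, at 0.486 and 0.509 with staurosporine and 0.645 and 0.468 with water. Over the 60 members, the same replicate number was lowest in both groups for 22 (36.7%), against 26.8% of the 2584 probes above 0 and 29.2% of the 813 as bright. This count was chosen after the values were seen and has no test. Across the 60 genes, deviations from the group mean in same-numbered arrays correlated at 0.290 to 0.629, and genes are not independent replicates.

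**Figure D4:**
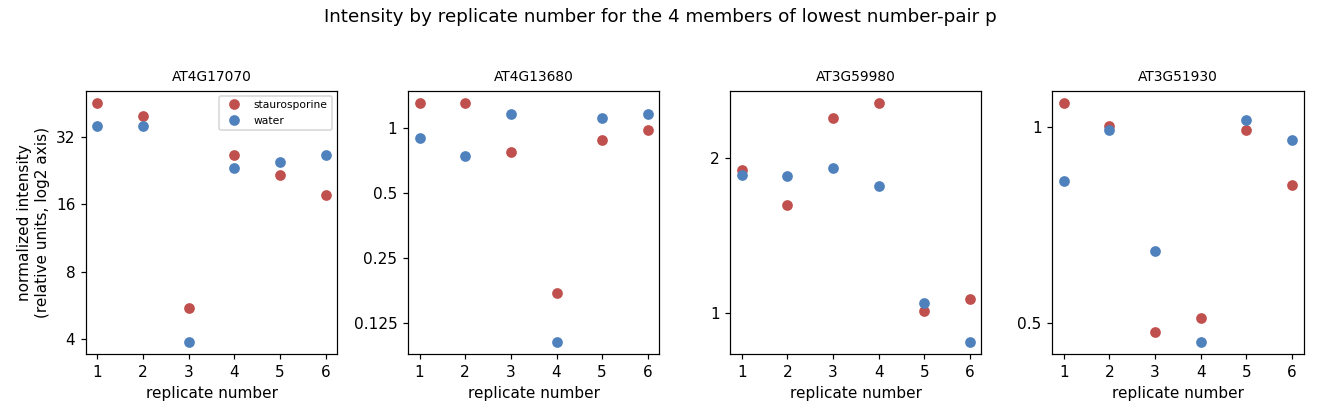
Normalized intensity (y axis, relative units, log2 axis) by replicate number (x axis) on staurosporine and water arrays for the 4 members of lowest p in the number-pair test. Number 3 is lowest in both groups for AT4G17070 and number 4 for AT4G13680.

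The edges of the rule cut through a continuum. Just inside the lower end were AT2G28540 and AT5G62840 at -0.28 each, and just outside were AT1G51550 at -0.33 and AT4G19900 at -0.33. Just inside the upper end were AT2G28390 and AT2G15440 at 0.28 each, and just outside were AT1G13990 at 0.31 and AT4G17650 at 0.36. By level, AT1G61990 at 0.762 and AT1G22700 at 0.768 were the last members, and AT3G57570 at 0.760 and AT1G02260 at 0.756 followed. Another 88 locus-named probes as bright as the members had ratios outside the range, 37 above and 51 below. By locus code, 15, 12, 10, 11 and 12 members lay on chromosomes 1 to 5, against 152, 104, 115, 103 and 125 of all locus-named probes.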

How the data were processed

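Total RNA of 12 samples was measured on single-channel arrays, and groups and replicate numbers were read from sample titles. The deposited values are linear intensities, reaching at most 100. The sources used here do not give the authors' background correction, scaling or scanner. Probes were named through the platform annotation, with 870 of 3439 probes carrying several genes and 1877 none listed there, and 690 of 692 single genes matched the gene table of assembly TAIR10.1.

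Intensities were quantile normalized. Values at 0 and values under the 1st percentile of an array's positive normalized values were set to that percentile before log2 was taken. This changed no member's own value. The floored probes still entered the variance that limma shares over all probes, and so the members' p-values and intervals. With an offset in the floor's place, the limma adjusted p of AT2G28540 was 0.00646 against 0.0882, with a log2 change of -0.28 in both. The comparison of groups used limma version 3.58.1 (R version 4.3.3) with lmFit and eBayes on 12 arrays without a block. Its 2-sided p-values were adjusted by Benjamini and Hochberg's method over all 3439 probes, at a threshold of 0.05. They reflect array-to-array spread, possibly technical only, and the number of arrays limits the precision. The number pair was tested with limma's F statistic on 6 averages. Both fits were tested on simulated data, where the number-pair test missed most of the smaller changes put in. How the likeness of arrays within number pairs affects the fit on 12 arrays was not tested in this way. Probe levels of different genes were not compared as transcript abundance. Same-numbered arrays were compared as pairs, since they deviated together from their group means. The correlations were 0.297 to 0.545 over all probes and 0.158 to 0.273 over those above 0 on every array. The sample titles give the numbers and state no pairing. Named in full are the 12 brightest members, the 4 with the smallest and 4 with the largest SD of ratios, the 4 of lowest number-pair p, those at the edges of the rule and examples by role. The members, lists and tests were chosen with earlier results of these data known, and roles were sorted after the members were seen. Protein and promoter sequences were not used here. Alternatives were other normalizations, a filter on low values, an offset, averaged number pairs, the replicate block and leaving out arrays or numbers.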

Additional observations from a re-analysis of the deposited data

Results flagged for a closer look

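In 4 of 120 groups of 6 arrays, 1 array lay far from the others by Dixon's 95% criterion, where chance alone puts about 1 group in 20 apart. AT3G24190 had a normalized intensity of 2.16 in water replicate 4, with the nearest water array at 0.812. AT5G17840 had 1.17 in staurosporine replicate 2, with the nearest staurosporine array at 0.889. AT3G12000 had 0.851 in water replicate 5, with the nearest water array at 1.005. AT5G17280 had 1.11 in water replicate 6, with the nearest water array at 0.961.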

How the results depend on the processing

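The median log2 change of the members, 0.04, was -0.19 with arrays centred on their medians, a scaling that puts the median of all probes at 0.00, and lay between -0.01 and 0.03 without any 1 replicate number. Without AT4G31530, an alternative chosen after seeing the data, it was 0.03. No member passed in the main comparison, 2 passed with median centring (AT5G62840 and AT2G28540), 1 passed with cyclic loess and 1 where an offset replaced the floor (AT2G28540 in both). Without any 1 array 0 members passed. The same rule chose 53 of the 60 without normalization or with cyclic loess, 40 with median centring, 60 when only probes above 0 entered, and 52 to 56 without any 1 replicate number. Over all probes, 788 passed, 9 with number pairs averaged, 809 under a replicate block of the number, 2 with averaged pairs and the number pair as a replicate block, and 615 to 748 without any 1 array. Neither block gave a call for a member. Of the calls over all probes, 381 were higher and 407 lower, against 343 and 223 without normalization. The number-pair test passed 0 probes, but 20 without normalization, 21 with median centring and 4 when only probes above 0 entered. A different test, of the replicate number with 12 arrays kept apart, passed 20 probes, of which 1 was a member, AT4G17070. A member's mean log2 ratio moved by more than the SD of its 6 ratios in 20 members with median centring, 4 without normalization and 1 with cyclic loess. For AT4G31530 the ceiling limits what can be measured.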
